A study of Mus musculus with 8 samples.

Results

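The estrogen receptor genes *Esr1*, *Esr2* and *Gper1* were followed in RNA sequencing of juvenile mouse ovaries. They are 3 of the 45583 gene symbols in the deposited count table, were chosen by symbol, and all 3 passed the filter on low counts that left 16601 genes. Each of the 8 libraries came from the ovary of a 3-week-old female C57/Bl6 mouse, 4 labelled WT (animals 1118 to 1121) and 4 labelled GOAT KO (animals 1139, 1140, 1141 and 1146). GOAT KO mice lack ghrelin O-acyltransferase, the enzyme encoded by *Mboat4* that attaches a fatty acid to the hormone ghrelin. The deletion is carried by the whole animal. WT and GOAT KO animals were littermates from crosses of heterozygotes, and the comparison asked how the ovarian transcriptome differs without acylated ghrelin.

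The nuclear estrogen receptors ERα (*Esr1*) and ERβ (*Esr2*) bind estradiol, pair up and act as transcription factors on DNA, with chaperones, coactivators and corepressors as partners. In the ovary ERβ is the main form in granulosa cells, the cells that surround the oocyte and make estradiol, while ERα is found mainly in theca, stromal and surface cells. *Gper1* encodes an unrelated receptor of the G protein-coupled family that responds to estrogen at cell membranes.

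*Mboat4* did not separate the libraries in the direction of their labels. It had 1, 1, 1 and 3 counts in the libraries labelled WT and 5, 7, 7 and 8 in those labelled GOAT KO, too few to be tested, and which part of the gene is deleted is not given in the sources used here. The directions given for the members follow the labels. Counts on genes summed to between 16147216 and 19481798 per library, with 60.7% to 62.6% of all reads on 1 gene. The study set aside 1 unnamed library of each group by its place on a scaling plot, and WT 1120 and GOAT KO 1139 stood apart here (1.21 on the first dimension for GOAT KO 1139 and 0.17 for WT 1120, against -0.47 to -0.068 for the others), so values are from all 8 unless stated, and those of the members, the *Esr2* exon and the pathway lists are also given with the other 6. On the second dimension it was WT 1118 that lay farthest out, at 0.76 against -0.46 to 0.32 for the others. GOAT KO 1139 also held fat cell markers, with a summed level of 397 CPM against 39.8 to 53.96 CPM in the other 7 libraries. CPM stands for counts per 1000000 counts of the library, scaled by TMM.

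The sequences below show where the *Esr2* transcripts of these ovaries differ from each other, at an exon that can be skipped. Its use by junction reads was the readout of the receptor genes in which the groups did not overlap. Such a gap between the groups was seen in 11 of 298 skippable exons of all genes (3.69%). With the 3′ side of the exon alone, and by assembled transcripts, the groups overlapped. Capitals mark an exon of 54 bases that can be skipped, at chr12:76140198-76140251 on the minus strand (GRCm38), with 30 bases of the exon before it and 30 of the exon after it, from the GENCODE vM21 transcript Esr2-202. The exon lies wholly in the coding sequence, has the length of 18 codons but begins and ends inside a codon, so that skipping it keeps the reading frame. It holds no stop codon in frame and adds amino acids to the ligand-binding domain, giving the form known in rodents as ERβ2.
With the exon: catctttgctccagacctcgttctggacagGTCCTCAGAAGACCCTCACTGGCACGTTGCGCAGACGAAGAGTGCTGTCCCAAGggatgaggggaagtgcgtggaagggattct
Without the exon: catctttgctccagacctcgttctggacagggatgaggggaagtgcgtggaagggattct

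The next pair shows why reads of *Esr1* and *Esr2* could be told apart although the proteins are related. It is the 60-base stretch in which their coding sequences are most alike without gaps, bases 607 to 666 of *Esr1* (Esr1-204) and 487 to 546 of *Esr2* (Esr2-202), counted from the start codon, and capitals mark the 7 bases that differ. The longest identical run anywhere in the coding sequences was 17 bases, shorter than the reads of 50 bases. Of the 50-base stretches in annotated transcripts, 0.336% of those of *Esr1*, 0.0587% of those of *Esr2* and none of *Gper1* were also found in transcripts of another gene.
Esr1: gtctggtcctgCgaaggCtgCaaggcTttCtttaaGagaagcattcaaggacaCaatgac
Esr2: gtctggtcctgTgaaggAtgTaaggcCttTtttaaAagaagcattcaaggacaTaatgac

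*Esr2* was by far the most abundant of the receptors. It ranked 189th of the 16601 genes tested by average CPM, against 4673rd for *Esr1* and 12803rd for *Gper1*. Per kb of annotated exon and per 1000000 counts, the level of *Esr2* was 132 ± 25.9 in WT and 143 ± 27.9 in GOAT KO (SD, n = 4 each). The level of *Esr1* on the same scale was 4.39 ± 0.50 in WT and 4.66 ± 0.53 in GOAT KO, and that of *Gper1* was 1.56 ± 0.66 and 1.58 ± 0.23. In each single library *Esr2* stood 20.8 to 39.0 times above *Esr1* (median 30.9) and *Esr1* stood 1.45 to 4.18 times above *Gper1* (median 3.36), so the order of the levels was the same in all 8. The size of the gap depends on the length used, because noncoding and retained-intron transcripts bring the annotated exons of *Esr1* to 13661 bases, whereas its longest coding transcript has 6339. With the longest coding transcript of each gene, *Esr2* stood 9.66 to 18.1 times above *Esr1*, and *Esr1* stood 3.12 to 9.02 times above *Gper1*.

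No receptor gene passed the test between the groups. A gene was called where its log2 fold change was past 0.5 in size and its p before adjustment was under 0.05, which held for 278 of the 16601 genes (1.67%). An unadjusted p under 0.05 alone was seen for 767 genes (4.62%), and an adjusted one for 4 (0.0241%), or 14 without GOAT KO 1139. Of the 3 members, 0 were called and 0 had an unadjusted p under 0.05, with edgeR, DESeq2 and limma-voom alike. The groups did not overlap in CPM for 484 genes (2.92%), and for 0 of the 3 members. The RNA is that of whole ovaries, in which fewer cells of a type and less RNA per cell cannot be told apart.

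*Esr1* (ENSMUSG00000019768, chr10:4611593-5005614, plus strand) had 65.5, 62.2, 49.5 and 62.6 CPM in WT 1118, 1119, 1120 and 1121, and 72.7, 66.5, 58.8 and 57.0 CPM in GOAT KO 1139, 1140, 1141 and 1146. The lowest value and the highest were those of the libraries that stood apart, and the ranges overlapped. The mean was 59.9 ± 7.12 CPM for WT and 63.7 ± 7.24 CPM for GOAT KO (SD, n = 4 each). The log2 fold change was 0.088 (SE 0.10, 95% interval -0.11 to 0.29, edgeR quasi-likelihood test, adjusted p = 0.983). Without WT 1120 and GOAT KO 1139 the means were 63.4 ± 1.82 and 60.8 ± 5.06 CPM (n = 3 each) and the log2 fold change turned to -0.063 (SE 0.073, edgeR adjusted p = 0.808).

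*Esr2* (ENSMUSG00000021055, chr12:76120419-76177259, minus strand) had 455, 535, 323 and 471 CPM in the WT libraries and 372, 553, 566 and 439 CPM in the GOAT KO libraries, in the same order. In each group the library that stood apart had the lowest value, and the other 6 lay between 439 and 566 CPM. The mean was 446 ± 89.1 CPM for WT and 482 ± 92.9 CPM for GOAT KO (SD, n = 4 each). The log2 fold change was 0.11 (SE 0.16, 95% interval -0.20 to 0.43, edgeR adjusted p = 0.983). With the other 6 libraries it was 0.093 (SE 0.10, edgeR adjusted p = 0.786).

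The libraries low in *Esr2* were those high in *Cyp19a1*, which encodes aromatase, the enzyme that makes estradiol from androgens. WT 1120 had 64.9 CPM of *Cyp19a1* and GOAT KO 1139 had 45.1, against 5.05 to 31.5 CPM in the other 6. The summed level of the 8 theca and steroidogenic markers was also highest there, at 3435 CPM in WT 1120 and 3551 in GOAT KO 1139 against 2383 to 3235 CPM in the other 6. Of these markers *Cyp17a1*, which encodes an enzyme of androgen synthesis, had 355 and 600.1 CPM in the same libraries against 42.3 to 137 CPM, and *Star*, which brings cholesterol into mitochondria, had 31.9 and 233 CPM against 8.13 to 20.4 CPM. The other markers of that list did not all follow, since *Ptch1* was lowest of all 8 libraries in WT 1120 (268 CPM) and *Hsd3b1*, most of the sum, had 1848 CPM in GOAT KO 1139 against 1656 to 2281 CPM elsewhere. Of the granulosa cell markers, whose sum is mostly *Inha* and *Gja1*, the summed level was not low in these libraries. For WT 1120 their summed level was 10843 CPM and for GOAT KO 1139 it was 10973, against 8589 to 10851 CPM in the other 6, and all 10 markers passed the filter. Single granulosa markers went both ways. *Nr5a2*, a nuclear receptor of these cells, was lowest of its group in both, at 768 CPM in WT 1120 and 893 in GOAT KO 1139, and *Inhbb*, an activin and inhibin subunit, was highest of its group in both, at 1198 and 1335 CPM. The part of these genes in the *Esr2* values was not tested.

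*Gper1* (ENSMUSG00000053647, chr5:139423151-139427800, plus strand) was low, with 51 to 116 counts per library. It had 3.40, 3.22, 6.36 and 2.78 CPM in WT 1118, 1119, 1120 and 1121, and 3.82, 4.64, 4.29 and 3.31 CPM in the GOAT KO libraries. WT 1120 was the highest of all 8, and the other 3 WT libraries lay below the GOAT KO libraries except that WT 1118 passed GOAT KO 1146. The mean was 3.94 ± 1.63 CPM for WT and 4.02 ± 0.58 CPM for GOAT KO (SD, n = 4 each), and the log2 fold change was 0.026 (SE 0.25, 95% interval -0.46 to 0.52, edgeR adjusted p = 0.995). Without WT 1120 and GOAT KO 1139 the means were 3.13 ± 0.32 and 4.08 ± 0.69 CPM (n = 3 each) and the log2 fold change was 0.38 (SE 0.19, edgeR adjusted p = 0.554), short of the threshold. *Gper1* lies inside the span of 3110082I17Rik on the opposite strand, and the use of strand in counting is not given in the sources used here.

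**Figure D1:**
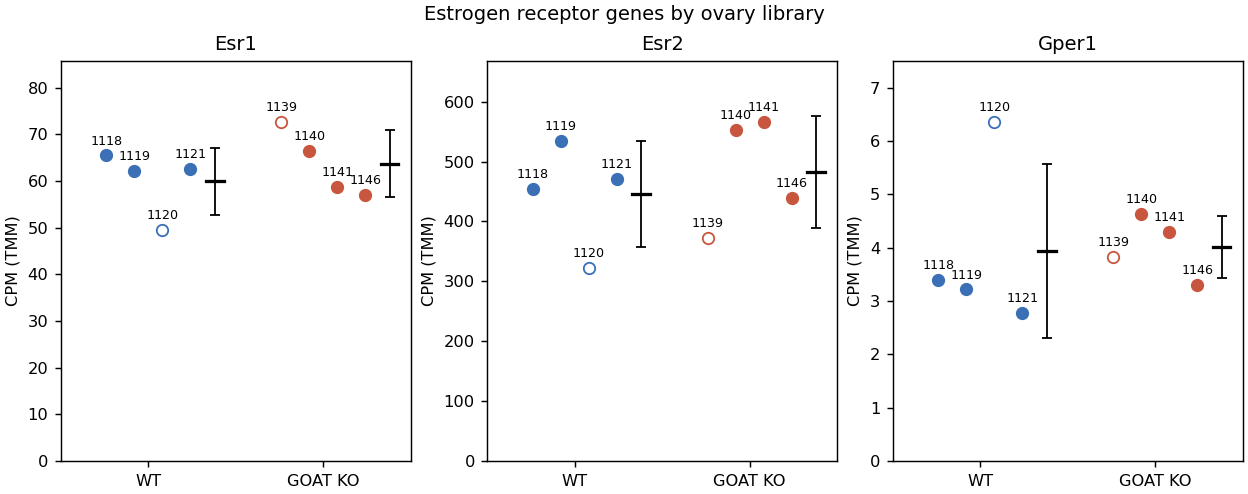
CPM of *Esr1*, *Esr2* and *Gper1* (vertical axes, TMM-scaled, each from 0) in the 4 WT and 4 GOAT KO libraries, numbered by animal, with the mean and SD of each group at the right of its points. Open points are WT 1120 and GOAT KO 1139, which hold the lowest *Esr2* value of their groups, 323 and 372 CPM.

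The balance of the nuclear receptors was compared within each library, where no scaling enters. The log2 ratio of *Esr2* to *Esr1* per kb was 4.81, 5.12, 4.72 and 4.93 in the WT libraries and 4.38, 5.07, 5.29 and 4.97 in the GOAT KO libraries. GOAT KO 1139 had the lowest ratio of all 8, and the ranges overlapped. The mean difference was 0.027 (4.93 ± 0.39 against 4.90 ± 0.17, n = 4 each, two-sided exact permutation p = 0.943).

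Reads that cross splice junctions gave a second readout of the same libraries. *Esr2* had 8622 such reads over 25 junctions and all 11 of its annotated introns were seen. *Esr1* had 286 reads over 15 junctions, with 10 of its 20 annotated introns seen, and *Gper1* had 5 reads, 3 in WT 1119 and 2 in WT 1120. No read crossed a junction on the strand opposite to its gene. Per 1000000 junction reads of the library, *Esr2* had 372 ± 76.3 in WT and 381 ± 68.3 in GOAT KO (exact permutation p = 0.886, n = 4 each) and *Esr1* had 12.4 ± 2.95 and 12.6 ± 4.59 (exact permutation p = 0.943, n = 4 each). *Gper1*, with 0 such reads in every GOAT KO library, gave an exact permutation p of 0.429, and at this depth nothing can be read from it.

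The junction reads over the coding part of *Esr1* were uneven. Introns 3, 5, 6 and 7 of the 7 coding introns of Esr1-204 had 81, 53, 62 and 57 reads over the 8 libraries. Introns 1, 2 and 4 had 5, 4 and 2, and the 4 reads of intron 2 and the 2 of intron 4 all came from WT 1121. Their lengths are 33769, 37049 and 82018 bases, the last being the longest of the 7, and intron 3 spans 72884 bases. The part of intron length in the reads was not tested. None of the transcripts that the authors assembled at *Esr1*, 2 to 4 per library, matched an annotated coding transcript of the gene. In *Esr2* the 8 coding introns of Esr2-202 had 341 to 1471 reads each.

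**Figure D2:**
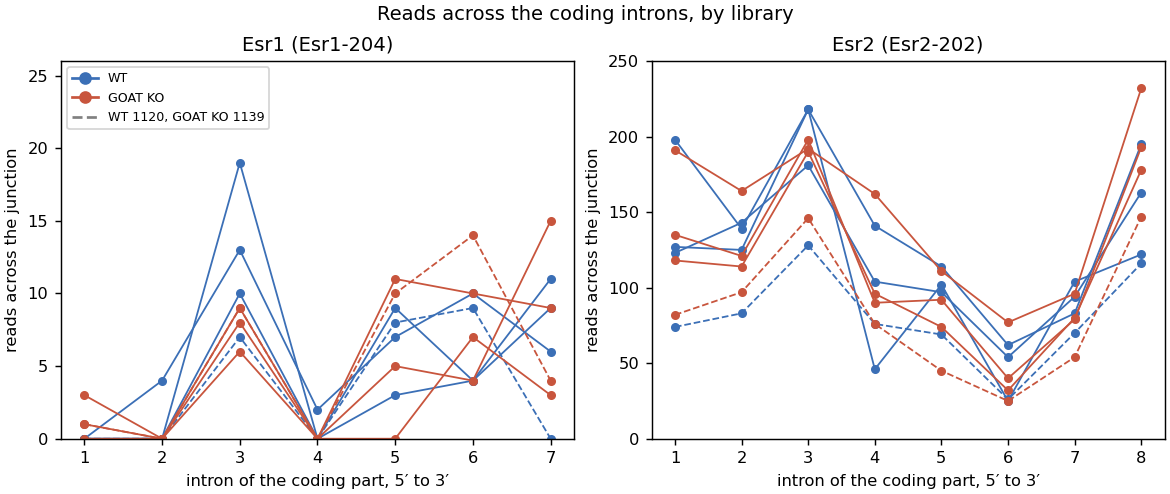
Reads across the junction of each coding intron, numbered from the 5′ end, for *Esr1* (Esr1-204, 7 introns) and *Esr2* (Esr2-202, 8 introns), 1 line per library, with WT 1120 and GOAT KO 1139 dashed. *Esr1* introns 1, 2 and 4 lie near 0 in all 8 libraries, and *Esr2* intron 6, which follows the skippable exon, has the fewest *Esr2* reads, 341 in all.

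The share of *Esr2* transcripts that kept the 54-base exon was lower in the GOAT KO libraries by junction reads. From the mean of the reads on its 2 sides against the reads that skip it, inclusion was 81.9%, 70.4%, 72.5% and 69.6% in WT 1118, 1119, 1120 and 1121. It was 63.6%, 66.0%, 67.6% and 67.1% in GOAT KO 1139, 1140, 1141 and 1146. Every GOAT KO library lay below every WT library, and the nearest values of the groups were 69.6% and 67.6%. WT 1118 stood highest, and it also had the highest value of all 8 on the second dimension of the scaling plot, 0.76 against -0.46 to 0.32. The mean was 73.6 ± 5.69% in WT and 66.1 ± 1.77% in GOAT KO (SD, n = 4 each), a difference of -7.52 percentage points. The two-sided exact permutation p was 0.0286, the smallest that 4 against 4 can give. The exon was singled out after its reads had been seen, so this p is not that of a test planned in advance.

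Of 298 annotated skippable exons in all genes with at least 20 reads in every library and 5 to 95% inclusion with all reads together, 11 (3.69%) had groups that did not overlap, 7 of them (2.35% of the 298) with all GOAT KO below all WT. In 49 of the 298 the absolute difference of the means was at least as large as that of *Esr2*, and 7 of these, the *Esr2* exon included, had groups that did not overlap.

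Few reads stood behind each library's value. Skipping reads numbered 14 to 45 per library, and reads into the exon from the 5′ side numbered 45 to 114. On that side alone, the share of reads that kept the exon was 87.9% in WT 1118 (95% Wilson interval 80.8 to 92.7%) and 69.2% in GOAT KO 1139 (57.2 to 79.1%), the highest and lowest of all 8. The nearest pair of the groups, WT 1121 at 74.6% (66.5 to 81.3%) and GOAT KO 1146 at 74.0% (64.6 to 81.6%), had intervals that nearly coincide. The 3′ side carried fewer reads than the 5′ side, 341 against 704 in all, and a further 31 reads in 5 libraries left the exon at a point past its annotated end. With the 3′ side alone the difference was -5.00 points and the groups overlapped (exact permutation p = 0.114), and with the 5′ side alone it was -7.49 points (p = 0.0286 in the same exact test). Without WT 1118 the difference shrank to -4.75 points, and with the 6 libraries it was -7.07 points (p = 0.1 in the exact permutation test, the smallest that 3 against 3 can give).

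The transcripts assembled by the authors gave the same direction with overlapping groups. By their FPKM, Esr2-202, which holds the exon, ranged from 51.4 to 92.7 in WT and from 52.3 to 99.1 in GOAT KO, and Esr2-201, which lacks it, had 21.1 ± 7.58 and 26.7 ± 4.82 (SD, n = 4 each). The share of *Esr2* FPKM with the exon was 77.3%, 72.5%, 74.9% and 71.8% in the WT libraries and 67.4%, 72.5%, 73.3% and 69.0% in the GOAT KO libraries. GOAT KO 1140 and 1141 lay among the WT libraries, and the difference of -3.63 points did not pass (exact permutation p = 0.143, n = 4 each). Both readouts placed the larger part of *Esr2* in the form with the exon in every library. The other annotated coding form seen, Esr2-203, had 1.16 to 6.24 FPKM, and Esr2-204, marked for nonsense-mediated decay, had at most 3.38 FPKM.

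**Figure D3:**
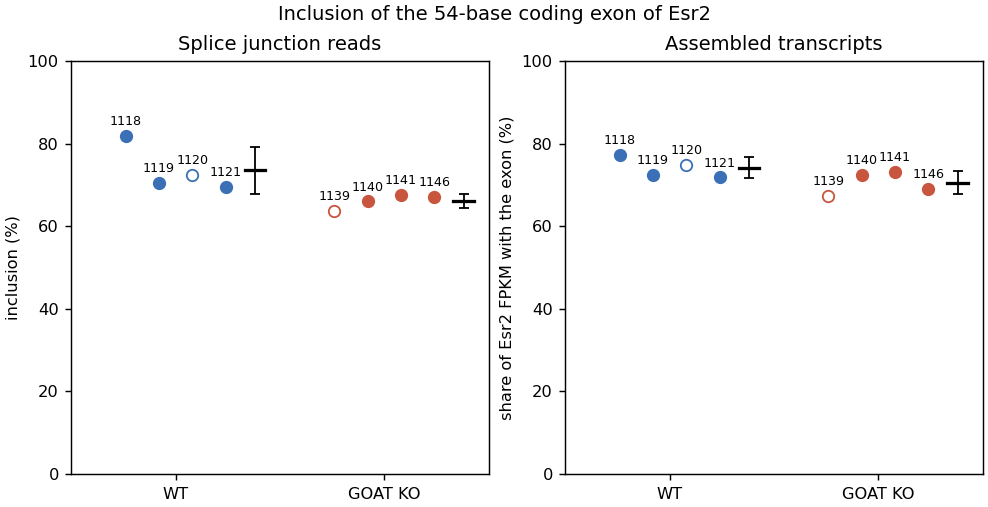
Share of *Esr2* with the 54-base coding exon in percent (vertical axes, 0 to 100), from splice junction reads (left) and from the FPKM of assembled annotated transcripts (right), by library with group mean and SD at the right of the points; open points are WT 1120 and GOAT KO 1139. The groups do not overlap on the left, where the GOAT KO values lie between 63.6% and 67.6%, and overlap on the right.

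Unannotated transcripts lay past the annotated 3′ end of *Esr2*, on its strand, in all 8 libraries. The authors' assemblies hold 5 to 8 of them per library, of 1 exon each, within chr12:76114461-76120416, a span of 5956 bases in which the annotation has no gene. The nearest gene on that side, *Syne2*, lies on the other strand and ends 9493 bases from *Esr2*. The gap between *Esr2* and the closest of these transcripts was 2 to 4 bases in WT 1118, WT 1120 and GOAT KO 1139, and 942 or 943 bases in the others. Over the 2156 bases covered in every library their level was 55.9, 67.6, 41.6 and 58.2 FPKM in the WT libraries and 46.6, 71.0, 73.3 and 56.1 FPKM in the GOAT KO libraries. As for *Esr2* itself, WT 1120 and GOAT KO 1139 were the lowest and the groups overlapped. The level was 51.7 to 60.7% of the *Esr2* FPKM of the same library.

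The gene model behind the count table was not checked here, so whether reads past the annotated end are in the *Esr2* counts is not known. Whether these transcripts belong to *Esr2* was not tested. Junctions were read only inside the annotated gene, so one that joins them to it could not be seen. In GOAT KO 1139 the assembly also held an unannotated transcript of 2 exons from 76109967 to 76126836, reaching into *Esr2*, at 32.6 FPKM. That transcript was not examined further. As a check on the strand given to single-exon transcripts, 92.8 to 94.4% of those that overlapped exactly 1 annotated gene lay on the strand of that gene.

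**Figure D4:**
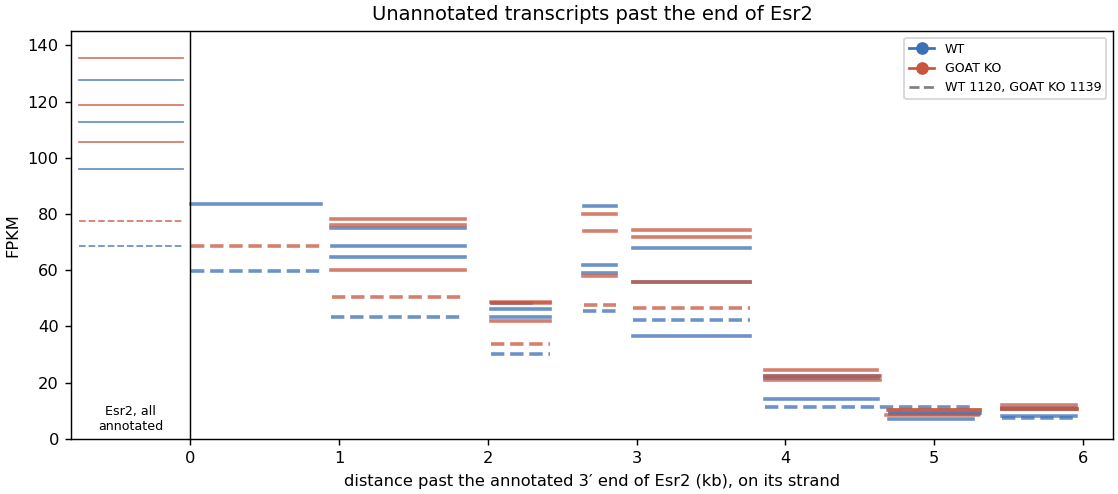
FPKM (vertical axis) of the unannotated transcripts past the annotated 3′ end of *Esr2* against their distance from it in kb (horizontal axis), each bar spanning 1 transcript of 1 library, with the summed FPKM of the annotated *Esr2* transcripts of each library at the left. The transcripts farthest from *Esr2* have the lowest levels, and over the stretch covered in every library the means run from 41.6 FPKM in WT 1120 (dashed, as GOAT KO 1139) to 73.3 FPKM in GOAT KO 1141.

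Of the genes that act with the receptors, none was called. The 8 lists together hold 73 genes, of which 72 are in the table and 64 were tested, and 0 were called against 1.67% of all genes. Of the 64, 7 had an unadjusted p under 0.05 in edgeR, 8 in DESeq2 and 6 in limma-voom, against 4.62% of all genes in edgeR, and 0 had an adjusted p under 0.05 with any of them. The median log2 fold change over all genes was -0.00035, and the medians of the lists lay between -0.11 and 0.076. With the 6 libraries 1 gene was called, *Cyp19a1*, which was higher, and 15 had an unadjusted p under 0.05, against 2.39% and 9.46% of all genes.

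Among the 7 tested genes of estrogen synthesis and inactivation the median log2 fold change was 0.015. *Hsd17b1*, which turns estrone into estradiol in granulosa cells, had 316 ± 61.7 CPM in the WT group and 391 ± 33.4 CPM in the GOAT KO group (SD, n = 4 each), with a log2 fold change of 0.31 (unadjusted p under 0.05, edgeR adjusted p = 0.983). *Hsd17b2*, which inactivates estradiol, had a log2 fold change of -0.25 (edgeR adjusted p = 0.983). *Cyp19a1* had 6.56, 5.05, 64.9 and 9.69 CPM in the WT libraries and 45.1, 6.84, 17.6 and 31.5 CPM in the GOAT KO libraries. WT 1120 was the highest of all, and the log2 fold change was 0.22 with it (SE 0.77, edgeR adjusted p = 0.986) and 1.39 without it and GOAT KO 1139 (SE 0.43, edgeR adjusted p = 0.422).

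The receptor chaperones, which hold unliganded nuclear receptors ready to bind hormone, had a median log2 fold change of -0.11, with 6 of 8 negative, and 3 of these had an unadjusted p under 0.05, against 4.62% of all genes. *Hsp90aa1*, an inducible HSP90, had 104 ± 2.82 and 94.04 ± 5.22 CPM in WT and GOAT KO (log2 fold change -0.15, edgeR adjusted p = 0.983). *Hspa8*, a constitutive HSP70, had 359 ± 99.1 and 275 ± 10.7 CPM (log2 fold change -0.38, edgeR adjusted p = 0.983). WT 1118 stood far above the rest in *Hspa8*, with 502 CPM against 283 to 348 CPM in the other WT libraries and 261 to 285 CPM in the GOAT KO libraries. The coactivators, which help the receptors switch genes on, had a median of -0.049 over 13 genes, with *Ncoa3* at -0.14 (the only 1 with an unadjusted p under 0.05) and *Med1* at -0.12. The 7 corepressors, which act the other way, had a median of -0.052, with *Ncor1* at -0.12 and none with an unadjusted p under 0.05.

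The related nuclear receptors had a median log2 fold change of 0.076 over 6 genes. *Esrra*, an orphan receptor that does not bind estradiol, had 13.1 ± 1.31 and 15.5 ± 1.38 CPM in WT and GOAT KO (log2 fold change 0.24, unadjusted p under 0.05, edgeR adjusted p = 0.983), and *Esrrg*, another orphan receptor, stood at 0.26 (edgeR adjusted p = 0.983). The factors that bind DNA beside the receptors had a median of 0.028 over 7 genes, with *Foxl2*, which keeps granulosa identity, at -0.17 and *Tfap2c* at 0.15 (edgeR adjusted p = 0.983 for both). *Foxa1* fell under the filter.

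The genes of membrane estrogen signalling had a median of 0.015 over 10 genes. *Cav1*, which encodes the scaffold of caveolae, stood at 0.20 (unadjusted p under 0.05, edgeR adjusted p = 0.983) and at 0.079 without WT 1120 and GOAT KO 1139, and *Src*, a tyrosine kinase, at -0.14 (edgeR adjusted p = 0.983). The genes known to respond to estrogen had a median of -0.020 over the 7 tested, with *Cxcl12*, a chemokine, at -0.19 and *Myc*, a growth-promoting transcription factor, at -0.20 (edgeR adjusted p = 0.983 for both), and *Ltf*, *Tff1*, *Wisp2* and *Areg* fell under the filter.

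Without WT 1120 and GOAT KO 1139 several of these values moved, none to an adjusted p under 0.05. The median log2 fold change of the estrogen-responsive genes went from -0.020 to -0.18, with *Cxcl12* at -0.30 (edgeR adjusted p = 0.321) and *Myc* at -0.28. That of the related nuclear receptors went from 0.076 to 0.19, with *Esrrg* at 0.46 and *Esrra* at 0.29. The membrane signalling list turned from 0.015 to -0.0071, with *Src* at -0.19. The coactivators had a median of -0.086 in these 6 libraries, with *Ncoa3* at -0.16 and *Med1* at -0.15. The corepressors had -0.078, with *Ncor1* at -0.16, and the DNA-binding factors 0.017, with *Foxl2* at -0.22 and *Tfap2c* at 0.13. The chaperones had -0.10, with *Hsp90aa1* at -0.17 and *Hspa8* at -0.41. The synthesis list had 0.019, with *Hsd17b1* at 0.42 (edgeR adjusted p = 0.185) and *Hsd17b2* at -0.073. The median over all genes was 0.0010.

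**Figure D5:**
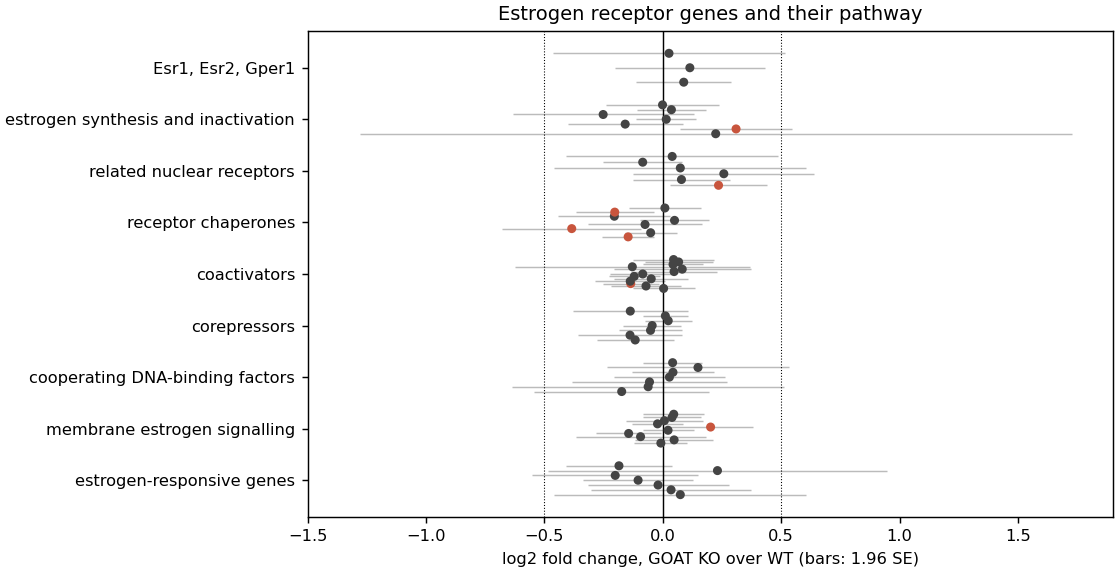
Log2 fold change of GOAT KO over WT (horizontal axis, bars 95% intervals, edgeR, all 8 libraries) for *Esr1*, *Esr2* and *Gper1* and for the tested genes of the 8 pathway lists, 1 point per gene. Red points have an unadjusted p under 0.05, and no red point passes the dotted lines at -0.5 and 0.5.

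Across the 8 libraries no relation of the receptor genes to each other or to the markers of the ovary's cell types passed. Of 15 relations, the 3 pairs of members and each member against the summed CPM of the granulosa, theca and steroidogenic, stromal and oocyte lists, 0 passed (exact permutation, lowest adjusted p = 0.661 for Pearson and 0.855 for Spearman). The strongest by Pearson's r was that of *Esr2* with the theca and steroidogenic list, at r = -0.61 (exact permutation p = 0.112, n = 8) and rho = -0.57 (p = 0.151 in the same exact test), and -0.85 without WT 1118 and WT 1119, the libraries farthest from the median of the list. With 1 library left out, r of *Esr2* with that list ranged from -0.75 to -0.49 and was weakest without WT 1120. *Esr1* with *Esr2* gave r = 0.32 and rho = 0.17, and r = 0.18 without WT 1120 and GOAT KO 1139.

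The genes named here as those whose log2 CPM tracked each member best were taken from 14195 genes. With 8 libraries and so many genes, r this high can arise from the search alone, and none was tested. For *Esr2* they were *Usp48* (r = 0.987), *Fam210a* (0.977), *AI854703* (0.976) and *Wbscr27* (0.975). For *Esr1* they were *Pla2r1* (r = 0.946), *Mest* (0.942), *Sntb1* (0.932) and *Ccdc170* (0.916). *Ccdc170* is the nearest coding gene upstream of *Esr1*, on the same strand and 49362 bases away, at chr10:4482502-4562231, and had 2.52 to 4.24 CPM. For *Gper1* they were *Bud31* (r = 0.963), *Rpp21* (0.957), *Kif26b* (0.952), *Gm6548* (0.951) and *Mtch1* (0.950), with rho from 0.857 to 0.952.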

How the data were processed

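Ovary RNA of 4 WT and 4 GOAT KO mice was sequenced by the authors as 50-base single reads, 1 library per animal. Per the study's methods, reads were aligned to mm10 (GRCm38) with TopHat2 2.0.14 and transcripts assembled with StringTie 1.0.4, guided by GENCODE. The authors deposited raw counts per gene symbol, splice junction read counts, percent of reads mapped, and assembled transcripts with FPKM, coverage and a constant score, which was not used. The counting tool is not given in the sources used here.

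Counts were compared with edgeR 4.0.16 in R 4.3.3 (TMM, filterByExpr with 10 counts in a median library and 15 in all, quasi-likelihood test, Benjamini-Hochberg over all genes). As in the study's filter, calls needed a log2 fold change past 0.5 in size and a p before adjustment under 0.05. Single values were compared by two-sided exact permutation of the libraries. The p-values measure only the spread between these animals, and intervals on read shares cover counting error only. DESeq2 1.42.0, limma 3.58.1 and other settings served as alternatives, and the tests were tried on simulated data. Depth was 16147216 to 19481798 counts per library. Positions and sequences come from GENCODE vM21 on GRCm38, a later release than the authors used. No pair of libraries within a group agreed within sampling noise.

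The members, gene lists and tests were chosen with earlier results of these data known. Named genes are the members, *Mboat4*, the 2 genes of smallest p in each pathway list or those called, and the 5 genes most like each member, of which some are not reported here. The 2 most abundant genes are named for a marker list. The *Esr2* exon, the comparison with other exons and the transcripts past *Esr2* were added after their values were seen.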

Additional observations from a re-analysis of the deposited data

How the results depend on the processing

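No receptor gene passed the threshold under any alternative run. Over the 8 fits that each left out 1 library, the log2 fold change ranged from 0.0025 to 0.14 for *Esr1*, from -0.016 to 0.22 for *Esr2* and from -0.11 to 0.36 for *Gper1*. Leaving out WT 1120 gave the highest *Gper1* value and the lowest *Esr2* value. Without WT 1120 and GOAT KO 1139 *Esr1* turned to -0.063. The other settings (RLE size factors, unscaled totals, DESeq2, limma-voom, no filter) kept the direction of all 3. The difference in the *Esr2* to *Esr1* log2 ratio ranged from -0.093 to 0.21, that in *Esr1* junction reads from -1.07 to 2.46 per 1000000, that in *Esr2* junction reads from -25.8 to 37.6 per 1000000 and that in *Gper1* junction reads from -0.58 to -0.24 per 1000000 when 1 library was left out. *Esr1* junction reads also turned negative without WT 1120 and GOAT KO 1139 (-2.34) and with junctions seen in all 8 libraries only (-0.72).

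The genes called numbered 278, 231 to 437 with 1 library left out (437 without WT 1120) and 691 with no filter on low counts. Those with an adjusted p under 0.05 numbered 4, with 3 to 14 when 1 library was left out (14 without GOAT KO 1139), 20 without both WT 1120 and GOAT KO 1139, 13 with DESeq2 and 7 with no filter. The difference in inclusion of the *Esr2* exon ranged from -8.86 to -4.75 points with 1 library left out, with exact permutation p between 0.0286 and 0.0857. It was past the threshold with each WT library left out and not with any GOAT KO library left out. It also lost its call with the 3′ junction alone (-5.00) and with assembled FPKM (-3.63). With 6 libraries (-7.07) no call was possible, since 3 against 3 cannot give p under 0.1. Of the 15 correlations 0 had an adjusted p under 0.05 with any library left out. With 1 library left out r ranged from -0.47 to 0.77 for *Esr2* with *Esr1*, from -0.62 to 0.23 for *Gper1* with *Esr1*, from -0.59 to 0.33 for *Gper1* with *Esr2*, from -0.77 to 0.11 for *Esr1* with the theca and steroidogenic list, from -0.13 to 0.61, -0.44 to 0.47 and -0.49 to 0.23 for *Esr1*, *Esr2* and *Gper1* with the stromal list, and from -0.019 to 0.40 for *Esr2* with the oocyte list. The sign turned without WT 1120 in all of these but the last, where it turned without GOAT KO 1141. The causes were not tested. No paired analysis was possible because WT and GOAT KO animals share no numbers in the labels. *Gper1* junctions seen in all 8 libraries were not run, as there are none. Depth limits *Gper1*, the junction reads of *Esr1* and the skipping reads of *Esr2*.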

Other observations

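Of the 25 splice junctions seen inside *Esr2* 14 were unannotated, but 98.6% of its junction reads lay on annotated ones. In 14 reads of 5 libraries both the 54-base exon and the 139-base exon before it were skipped, an annotated form. A junction from coding exon 3 to an unannotated point inside the next intron had 13 reads, of which 12 were in WT 1118 and 1 in GOAT KO 1146. Another from the same exon into that intron had 31 reads in 7 libraries. A junction from inside that intron to the exon after it had 13 reads in 4 libraries, 7 of them in WT 1118 and 4 in GOAT KO 1146. WT 1118 also had 46 reads across coding intron 4, the fewest of all 8 (76 to 162 in the others), and 25 reads on the 3′ side of the 54-base exon against 102 on its 5′ side. WT 1118 was the library with the highest inclusion of that exon, and the part of these reads in it was not tested.

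Among the cell type markers, the stromal list had a median log2 fold change of 0.10 over 7 genes, of which 3 were higher in GOAT KO at an unadjusted p under 0.05, *Col1a1* (0.36), *Col1a2* (0.28) and *Col3a1* (0.26). The granulosa list had a median of 0.12 over 10 genes, of which *Fshr* (0.47) and *Hsd17b1* (0.31) were higher at that p, and its most abundant genes, *Gja1* and *Inha*, stood at 0.10 and 0.088. *Foxl2* and *Hsd17b1* stand in both a granulosa and a pathway list. The theca and steroidogenic list had a median of 0.15 over 7 genes, with *Hsd3b1* at 0.15 and *Cyp11a1* at 0.28, and none under that p. The oocyte list had a median of 0.052 over 9 genes, of which *Figla* (0.46) was higher at that p, and its most abundant genes, *Gdf9* and *Zp2*, stood at 0.025 and 0.14. The surface epithelium list had a median of -0.072 over 8 genes, of which *Krt7* (-0.35) was lower at that p, and its most abundant genes, *Upk3b* and *Krt8*, stood at 0.054 and -0.21. The leukocyte list had a median of -0.28 over 6 genes, of which *Adgre1* (-0.36) was lower at that p, and its most abundant genes, *Csf1r* and *Cd68*, stood at -0.047 and -0.31. The oviduct and uterus markers had a summed level of 4.27 to 11.1 CPM. The fat cell list had a median of 3.24 over 5 genes with all libraries, of which 4 were higher at that p, and a median of 0.0036 without WT 1120 and GOAT KO 1139. The share of all genes at an unadjusted p under 0.05 was 4.62%. *Fshr*, *Col1a1*, *Figla*, *Krt7* and *Adgre1*, and *Cyp17a1*, *Star*, *Ptch1*, *Nr5a2*, *Inhbb* and *Plin1* likewise, are named after their values were seen. Without WT 1120 and GOAT KO 1139 the median of the theca and steroidogenic list turned to -0.10, that of the surface epithelium list was -0.16, and those of the granulosa, stromal, oocyte and leukocyte lists were 0.13, 0.090, 0.074 and -0.28. In those 6 libraries *Fshr* (0.68), *Inhbb* (0.57) and *Plin1*, a fat cell marker (0.78), passed the call of a log2 fold change past 0.5 with an unadjusted p under 0.05, against 2.39% of all genes, and had an edgeR adjusted p of 0.144, 0.278 and 0.422. With all 8 libraries or with 6 no gene of these lists had an adjusted p under 0.05 in edgeR.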
